A study of Gallus gallus with 60 samples.

Results

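The chicken miRNAs described here are the 179 mature miRNAs named gga-miR-6500 to gga-miR-7499 in the deposited expression tables, on either arm, without gga-miR-6553. They were chosen by number, out of 1049 miRNAs (709 of them known chicken miRNAs) listed in at least 1 of the 2 tables. The exception is gga-miR-6553, which the study names when discussing its miRNAs that differed between tissues. Counts by level, stage and tissue therefore lack it. The table of 15 stages listed 165 of them and the table of 5 tissues listed 120, with 106 in both. They came from 125 hairpin numbers, and the numbers fell into blocks, with 136 miRNAs from gga-miR-6542 to gga-miR-6711 (the larger block), 41 from gga-miR-7438 to gga-miR-7480 (the smaller block), and the 2 arms of miR-6516.

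Small RNA of Tibetan chicken was sequenced in 60 samples, 3 for each of 20 groups. Pectoral muscle was taken at 13 stages: embryonic days 9, 12, 15, 18 and 20 (E9 to E20), days 1, 36, 100 and 300 after hatching (D1 to D300) and years 3, 5, 8 and 12 (Y3 to Y12). Brain, liver, ovary, spleen and kidney were taken at D300. E5 and E7 were collected as entire embryos according to the methods, although their labels read pectoral muscle. Between these whole embryos and later muscle, tissue and age differ together and cannot be told apart. The methods give the Y3 birds as 2 years old, and the label was used here. No bird was treated, and no genotype differed between groups. Early-embryonic muscle (Pre_E) holds E9 and E12, late-embryonic muscle (Lat_E) runs from E15 to D1, and postnatal muscle (Bir_G) from D36 to Y12. These periods were drawn by the study after clustering the same profiles, so tests between them are not independent of the data. The labels do not state that the 3 samples of a group came from separate birds, and p-values measure only the spread between these samples.

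A miRNA is cut from a hairpin precursor, and either the 5p or the 3p arm can be loaded onto an Argonaute protein, where a short seed at its 5′ end pairs with target mRNAs. The number in a miRNA name is given in the order of registration and says nothing of sequence family, so neighbouring numbers need not be related. High numbers mostly entered the registry through deep sequencing, and miRNAs found in few species are usually less abundant than those shared among vertebrates. Many such hairpins lie within introns or exons of protein-coding genes.

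The deposited values, called TPM by the authors, are RPM, reads scaled to the size of the library with no length correction. In 56 samples the values resolved into whole reads, with library totals of 9347754 to 13060558 reads, so that 1 read was worth 0.0766 to 0.107 TPM and a floor of 3 reads 0.230 to 0.321 TPM. The summed TPM of all listed miRNAs was 294507 to 541736 in Lat_E and 657870 to 875328 in Bir_G. Tissue markers matched the labels of muscle (gga-miR-1a-3p and gga-miR-133a-3p), brain (gga-miR-124a-3p and gga-miR-9-5p), liver (gga-miR-122-5p), ovary (gga-miR-202) and spleen (gga-miR-142), while neither of the 2 listed kidney markers (gga-miR-194 and gga-miR-215-5p) was highest in kidney. An exact 0 was not always absence. gga-miR-21-5p, found in nearly every tissue, was listed at 0 in 1 of the 3 E9 samples beside 1810 and 2089 TPM. Among the miRNAs described here, 6 of the 103 stage groups with at least 3 TPM in 2 samples held a 0 in the remaining sample, against 35 of 2866 among other known miRNAs, so such values are written as listed at 0.

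RefSeq, on the assembly GRCg7b, held a gene for 119 of the 125 hairpin numbers. The hairpin lay within the span of a protein-coding gene for 104 of them (87.4%), against 586 of all 799 RefSeq miRNA genes (73.3%), as a description without a test. The table used gives no strand, so whether a hairpin and its host gene are read in the same direction was not examined. Hairpin genes of the larger block were 95 to 139 bases long (median 110), and those of the smaller block 53 to 68 bases (median 62). Another miRNA gene lay within 10 kb for 8 numbers. For the 4 numbers with more than 1 gene (MIR6637, MIR6646, MIR6648 and MIR7445) it was only the other copy of the same number. MIR6543 had MIR1552 as a different neighbour, MIR6602 had MIR1797, MIR6675 had MIR100 and MIRLET7A2, and MIR6677 had MIR1687. RefSeq places MIR6648-1 and MIR6648-2 at overlapping positions, so reads of gga-miR-6648 cannot be given to 1 of the copies. Each of 3 pairs of miRNAs (such as gga-miR-6593-5p with gga-miR-7438-3p) had identical values, with both above 0 only in the same single sample and at the same level there.

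Each of the 179 miRNAs was seen in some sample, but most rarely and at low level. In the stage table, 53 of 165 (32.1%) reached a mean of 1 TPM in some group, against 344 of 522 other known miRNAs (65.9%). Only 9 of 165 (5.45%) reached 10 TPM, against 232 of 522 (44.4%), and the median of the highest group mean was 0.320 TPM against 4.97 TPM. Another run of high chicken numbers, gga-miR-1550 to gga-miR-1816, lay nearer, with 20 of 212 (9.43%) reaching 10 TPM and a median of 0.608 TPM. No sample exceeded 1 TPM for 110 of the 179. The smaller block was lower than the larger one, with medians of the highest group mean of 0.164 and 0.351 TPM.

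Presence was also uneven across samples. gga-miR-6582-3p and gga-miR-6648-3p were above 0 in all 60 samples, and 4 members in total were above 0 in all 39 muscle samples. Of the 143 members above 0 in muscle at all, 24 were found in at least 20 of the 39 samples and 58 in only 1 to 3. A further 22 were above 0 in whole embryos and in no muscle sample.

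The number of members detected was lower in later periods of muscle, as a description without a test. It was 72 to 85 (median 79) in the 6 whole embryos, 63 to 76 (median 66.5) in the 6 Pre_E samples, 15 to 56 (median 37.5) in the 12 Lat_E samples and 20 to 39 (median 27) in the 21 Bir_G samples. Known miRNAs as a whole went from a median of 418.5 in Pre_E to 313 in Bir_G, and the run gga-miR-1550 to gga-miR-1816 from 101.5 to 49. The summed level of the members was 127 to 200 TPM in Pre_E and 16.2 to 47.3 TPM in Bir_G, with no overlap, and the medians differed 5.75-fold. Without gga-miR-6542-3p, the most abundant member, the ratio of medians was 5.18, and taken as a share of all listed TPM it was 8.07. In the other tissues at D300, brain held the most members, 53, 60 and 65 in its 3 samples, and kidney the fewest, 16, 17 and 21. Known miRNAs as a whole were also most numerous in brain (389 to 427) and least in kidney (290 to 304). The run gga-miR-1550 to gga-miR-1816 had 75 to 92 in brain and 39 to 51 in kidney. The summed level ran from 55.0 to 77.6 TPM in brain and from 10.3 to 13.8 TPM in kidney.

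**Figure D1:**
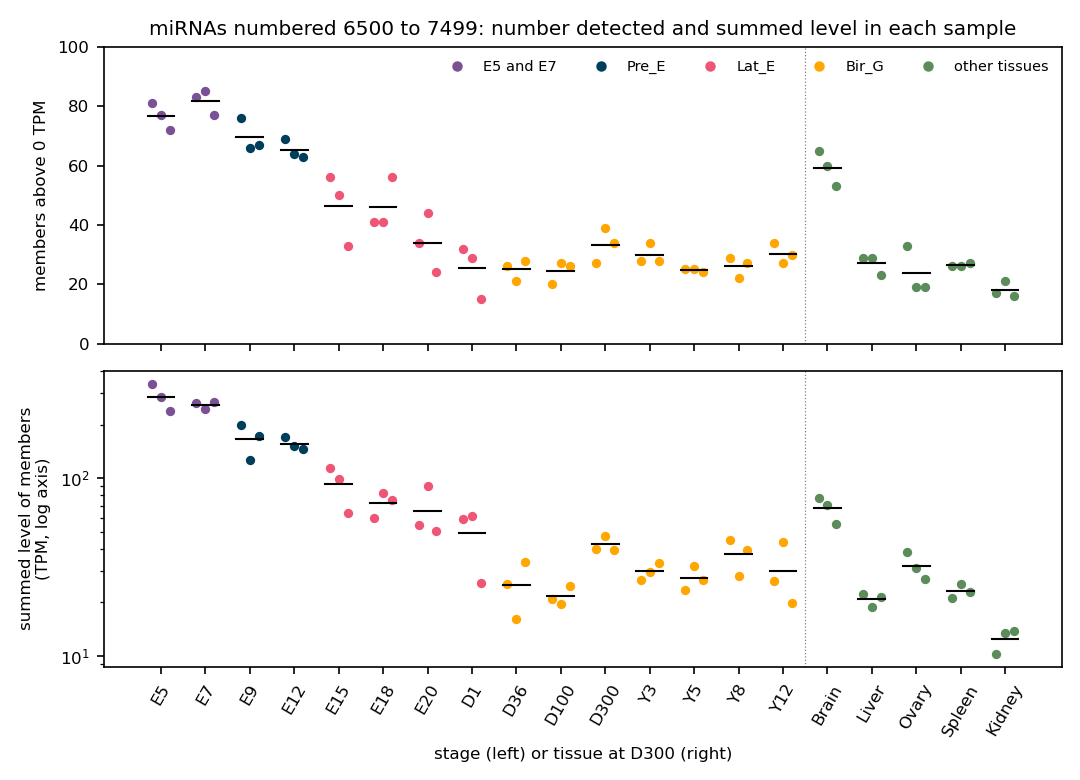
Number of members above 0 TPM (upper panel) and their summed level in TPM on a log axis (lower panel), for each of the 60 samples by stage or by tissue at D300; points are samples and horizontal lines are means of 3. All 6 Pre_E samples lie at 63 or more members and all 21 Bir_G samples at 39 or fewer, and brain lies above the other tissues.

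For 30 members the values are given in detail. They are those with the highest group means among the 46 members that passed at least 1 of the tests below, and each had a group mean of at least 2.08 TPM. The other 16 had highest group means of 0.605 to 1.87 TPM. The 10 members that reached a mean of 10 TPM in some group were gga-miR-6542-3p, gga-miR-6599-3p, gga-miR-6631-5p, gga-miR-6548-5p, gga-miR-6615-5p, gga-miR-6669-3p, gga-miR-6660-3p, gga-miR-6557-3p, gga-miR-6648-3p and gga-miR-6665-5p. All 10 belong to the larger block. Their highest group was E5 in 7 of them, E12 in gga-miR-6669-3p, ovary in gga-miR-6615-5p and D300 muscle in gga-miR-6660-3p.

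**Figure D2:**
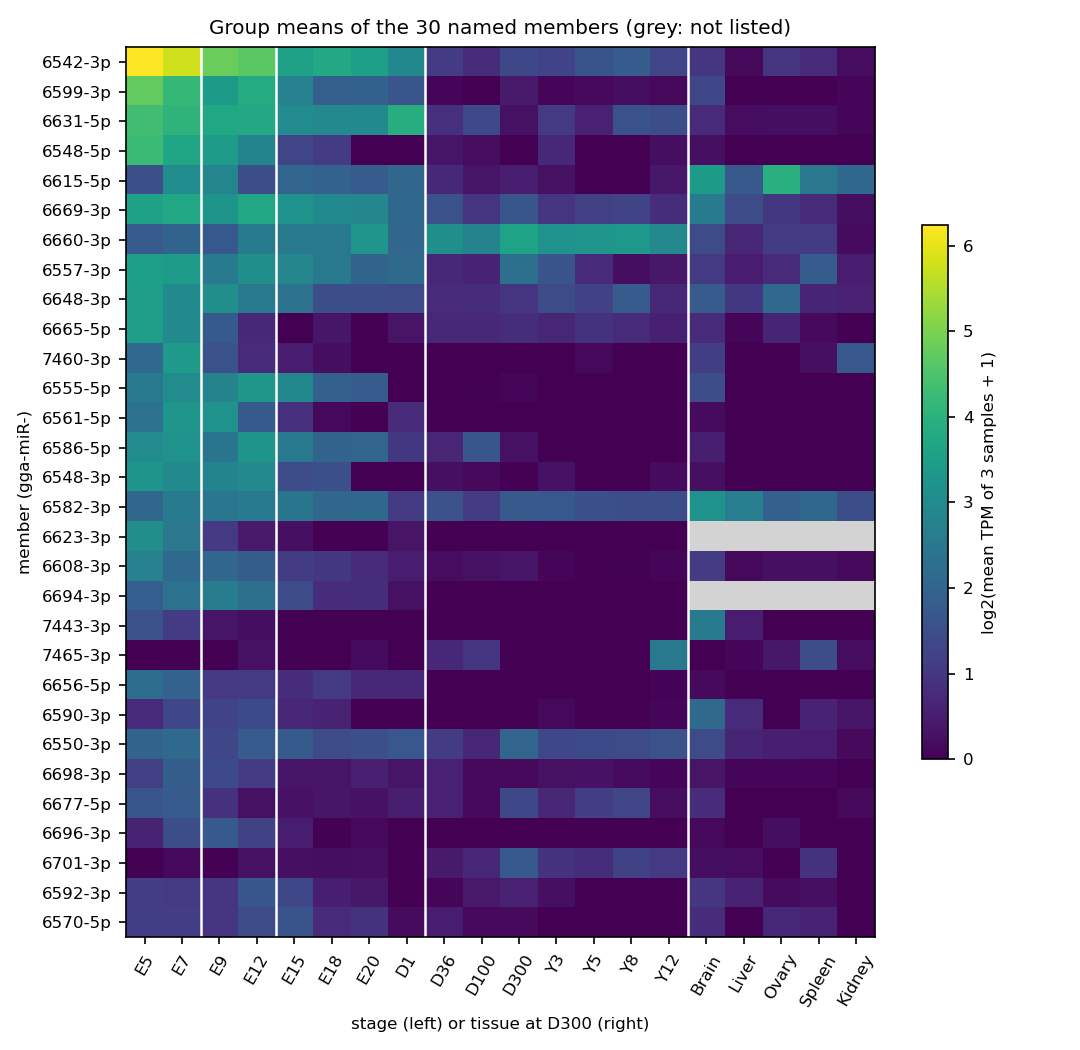
Group means of the 30 members described in detail, as log2(mean TPM of 3 samples + 1), for the 15 stages (left) and the 5 tissues at D300 (right); white lines separate whole embryos, Pre_E, Lat_E, Bir_G and the tissues, and grey marks members the tissue table does not list. Most members are brightest at the left, gga-miR-6660-3p is brightest in postnatal muscle, and gga-miR-6615-5p in ovary and brain.

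The comparison of periods asked which members changed between early, late and postnatal muscle. A member was called at a Benjamini-Hochberg adjusted p of at most 0.05 in limma on log2(TPM + 1), over all miRNAs of the table, together with a fold change of at least 2 on that scale, which understates changes of low values. From Pre_E to Bir_G, 20 of 132 members tested fell and 1 rose, against 24.6% falling and 11.5% rising (36.1% together) among all 785 miRNAs tested. From Pre_E to Lat_E, 11 of 126 fell and 0 rose, against 17.2% and 2.11% (19.3% together) of 760, and 44 (34.9%) had an unadjusted p of at most 0.05, against 45.4%. From Lat_E to Bir_G, 8 of 120 fell and 0 rose, against 14.0% and 13.8% (27.8% together) of 731, and 54 (45.0%) had an unadjusted p of at most 0.05, against 59.6%. At these settings the share of members called was below the share of all miRNAs in each comparison, as a description. This order did not hold throughout once rarer miRNAs were left out (minimum mean 1 TPM). The shares called were then 50% of 18 members against 42.5% of 325 miRNAs from Pre_E to Lat_E. They were 82.4% of 17 against 72.7% of 319 from Pre_E to Bir_G, and 61.5% of 13 against 64.3% of 297 from Lat_E to Bir_G. The 3 comparisons share samples. Every Pre_E sample lay above every Bir_G sample for 22 of 132 members, against 19.0% of all miRNAs, every Pre_E above every Lat_E sample for 8 of 126 (against 5.0%), and every Lat_E above every Bir_G sample for 3 of 120 (against 4.51%). Every whole embryo lay above every Pre_E sample for 8 of 143, against 8.94%. The reverse held for 0 members in each case, against 7.52% of all miRNAs from Pre_E to Bir_G, 0.395% from Pre_E to Lat_E, 9.03% from Lat_E to Bir_G and 2.57% from whole embryos to Pre_E.

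The counts changed under other settings. Among abundant miRNAs (mean from 10 TPM upward) the median change was −0.84 on the log2 scale from Pre_E to Lat_E, 0.26 from Lat_E to Bir_G and −0.61 from Pre_E to Bir_G. With the samples centred on the median miRNA, 7 members rose and 3 fell from Pre_E to Lat_E, against 12.6% and 3.68% of all miRNAs in that fit. From Pre_E to Bir_G, 5 rose and 13 fell, against 15.7% and 18.2%. The centred fit kept 3 of the 11 calls from Pre_E to Lat_E (both arms of miR-6548 and gga-miR-6561-5p) and 14 of the 21 from Pre_E to Bir_G. With edgeR on the recovered reads, 9 of 122 members fell from Pre_E to Lat_E, against 10.8% of all miRNAs, and 3 of the 9 were among the 11 (gga-miR-6599-3p, gga-miR-6694-3p and gga-miR-6696-3p). From Lat_E to Bir_G edgeR called 47 of 119 lower and 21 higher, against 38.7% and 27.8% of all miRNAs, all 8 of the limma calls among them. With the means of the stages as units, 1 member fell from Pre_E to Lat_E, against 2.63% of all miRNAs. Markers of other cell types moved with the periods too. The 2 of 2 epithelial markers listed (gga-miR-205a and gga-miR-200b-3p) had a summed level of 1396 to 57107 TPM in Pre_E, 98.9 to 15856 TPM in Lat_E and 11.1 to 526 TPM in Bir_G. The 3 brain markers summed to 13973 to 22939 TPM in Pre_E, 3098 to 14724 TPM in Lat_E and 3522 to 8509 TPM in Bir_G. Most of it was gga-miR-128-3p, with medians of 18765, 8732 and 5144 TPM, which also had means of 2762 to 6787 TPM in the tissues other than brain at D300. The medians of gga-miR-9-5p were 191, 88.7 and 98.0 TPM, and those of gga-miR-124a-3p 4.07, 2.11 and 2.06 TPM. Those of muscle itself, 4 of 4 listed, summed to 7887 to 74534 TPM in Pre_E, 71489 to 224864 TPM in Lat_E and 211712 to 393778 TPM in Bir_G. This sum was mostly gga-miR-133a-3p, with medians of 22023, 149088 and 311500 TPM, and gga-miR-1a-3p rose too (47.9, 148 and 1503 TPM). By contrast, the medians of gga-miR-206 fell (311, 236 and 0.387 TPM), and those of gga-miR-499-5p rose and then fell (196, 512 and 63.5 TPM). The 3 white blood cell markers listed, of 4, summed to 132 to 282, 59.2 to 278 and 1721 to 9073 TPM, and gga-miR-144-3p, the 1 red blood cell marker listed of 2, lay at 4.42 to 9.90, 0 to 22.8 and 123 to 687 TPM. No marker of these lists was at 0 throughout a period, and their part in the changes of the members was not tested. In bulk tissue, fewer cells of a type and less RNA per cell cannot be told apart.

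**Figure D3:**
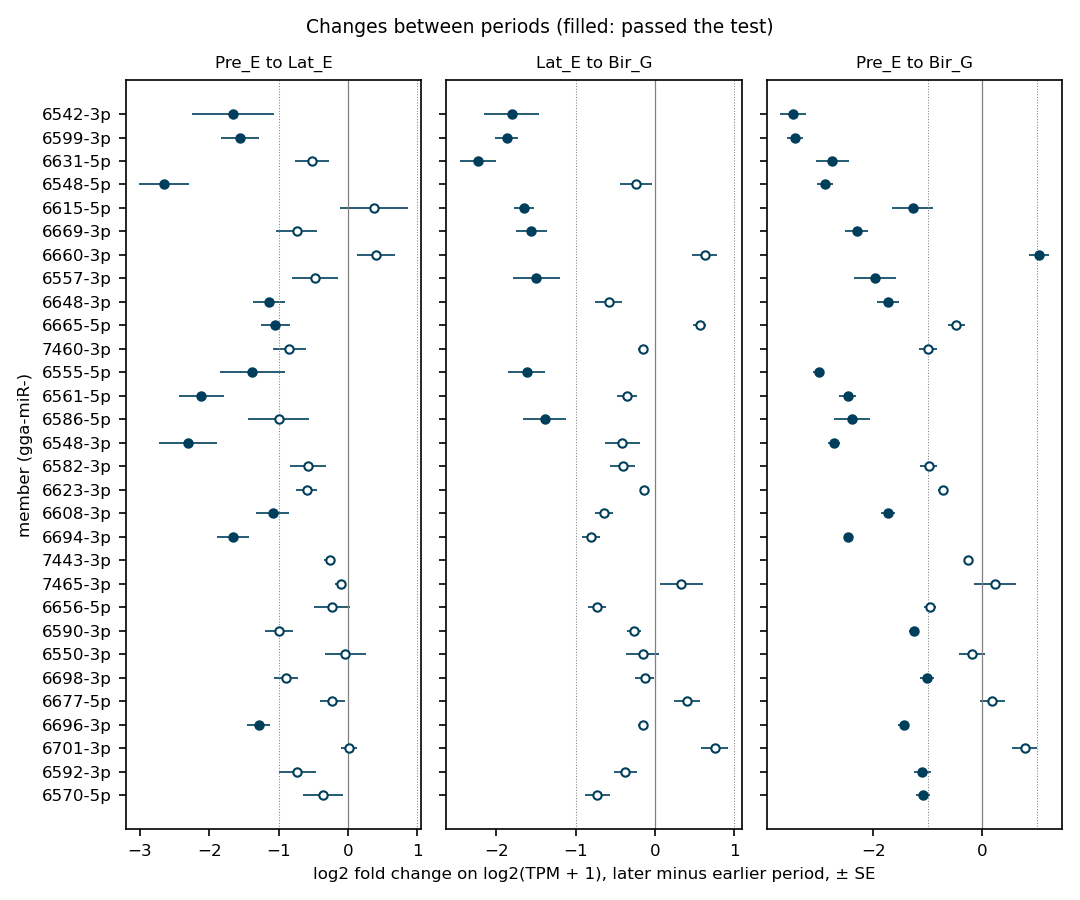
Log2 fold change on the log2(TPM + 1) scale, later minus earlier period, with its standard error, for the 30 members in the 3 comparisons of periods; filled points passed the test and dotted lines mark 2-fold. Filled points lie left of 0 except gga-miR-6660-3p from Pre_E to Bir_G at 1.03.

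gga-miR-6542-3p was the most abundant member. Its hairpin lies within SRF, which encodes the serum response factor that drives muscle and cytoskeletal genes. Its level was 84.6, 73.8 and 66.0 TPM in the E5 embryos and 27.6, 24.7 and 29.5 TPM in E9 muscle. It ran from 21.9 to 29.5 TPM (median 26.1) in Pre_E, from 0 to 17.1 TPM (median 10.6) in Lat_E and from 0 to 3.26 TPM (median 1.64) in Bir_G. Every whole embryo lay above every Pre_E sample and every Pre_E sample above every Lat_E sample, and the 2 Lat_E samples listed at 0 stood beside 17.1 and 15.4 TPM at E15 and 10.95 and 8.59 TPM at D1. The level fell by 3.46 ± 0.23 (SE) on the log2 scale from Pre_E to Bir_G (limma adjusted p = 3.41e-13) and by 1.81 ± 0.35 from Lat_E to Bir_G (adjusted p = 4.12e-05). The fall from Pre_E to Lat_E, 1.65 ± 0.59 (adjusted p = 0.0354), passed the test with the 2 values listed at 0 left out of Lat_E, where the change was −1.04 (limma adjusted p = 6.69e-05). The call was lost in limma without replicate 1 (adjusted p = 0.11), without replicate 2 (0.093), with a pseudocount of 0.1 (0.10), with stage means (0.063) and with the samples centred (change −0.72, adjusted p = 0.21). In edgeR the change was −0.68 (adjusted p = 0.51).

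gga-miR-6599-3p, from a hairpin within ASPSCR1, was called in each of the 3 comparisons of periods. It was 32.5, 23.3 and 22.2 TPM at E5. It ran from 5.22 to 15.0 TPM (median 12.4) in Pre_E, from 0.940 to 8.61 TPM (median 2.99) in Lat_E and from 0 to 0.793 TPM (median 0) in Bir_G. Every Lat_E sample lay above every Bir_G sample, while Pre_E and Lat_E overlapped. The level fell by 1.56 ± 0.28 from Pre_E to Lat_E, by 1.87 ± 0.15 from Lat_E to Bir_G and by 3.42 ± 0.14 from Pre_E to Bir_G (limma adjusted p = 0.000448, 4.16e-13 and 9.30e-18). The call from Pre_E to Lat_E was lost in limma with stage means (adjusted p = 0.077) and with the samples centred (change −0.63).

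gga-miR-6631-5p, from a hairpin within ITPKC, was called lower from Lat_E to Bir_G and was not called from Pre_E to Lat_E. It ran from 8.19 to 20.4 TPM (median 10.4) in Pre_E and from 4.66 to 9.95 TPM in the 9 samples of E15 to E20. It was 14.4, 16.8 and 10.5 TPM at D1, above each of those 9, a difference that was not tested. By D36 it was 0.282, 0.868 and 1.35 TPM, and no Bir_G sample exceeded 3.64 TPM, below the lowest Lat_E sample at 4.66 TPM. The level fell by 2.23 ± 0.23 from Lat_E to Bir_G (limma adjusted p = 2.41e-10), and the difference from Pre_E to Lat_E, −0.51, did not pass the test.

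Both arms of miR-6548, whose hairpin lies within NSMCE1, fell before hatching. gga-miR-6548-5p ran from 4.86 to 14.1 TPM (median 7.29) in Pre_E. In Lat_E its median was 0 and its highest value 4.39 TPM, with all 6 samples of E20 and D1 listed at 0. The level fell by 2.65 ± 0.36 from Pre_E to Lat_E (limma adjusted p = 3.83e-05). gga-miR-6548-3p fell by 2.31 ± 0.42 (adjusted p = 0.000492). The arms were above 0 in the same 25 samples of the 60, so they are not separate evidence. Both calls were lost in edgeR (adjusted p = 0.072 for the 5p arm and 0.15 for the 3p arm). They were also lost in limma with stage means (adjusted p = 0.063 and 0.10).

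gga-miR-6555-5p and gga-miR-6694-3p were nearly confined to Pre_E and Lat_E among the 39 samples of muscle. gga-miR-6555-5p, from a hairpin within ENOX1, was 10.5, 7.81 and 8.38 TPM at E12 and was listed at 0 in all 3 samples of D1. No Bir_G sample exceeded 0.159 TPM, and the level fell by 3.00 ± 0.11 from Pre_E to Bir_G (limma adjusted p = 2.80e-19). gga-miR-6694-3p, from a hairpin within ADAM12, a metalloprotease gene active in muscle formation, ran from 3.00 to 6.16 TPM in Pre_E, from 0 to 2.18 TPM in Lat_E and was listed at 0 in all 21 Bir_G samples. Pre_E lay above Lat_E in every sample, and the fall from Pre_E to Lat_E was 1.66 ± 0.23 (limma adjusted p = 5.09e-05). That call was lost in limma with stage means (adjusted p = 0.064) and with the samples centred (change −0.73). The fall of gga-miR-6555-5p from Pre_E to Lat_E, 1.38 ± 0.47 (limma adjusted p = 0.029), lost its call without any 1 of the 3 replicates (adjusted p of 0.13, 0.059 and 0.13).

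A pair of members within collagen genes followed the same course. gga-miR-6561-5p (COL11A1) was 9.53, 7.73 and 6.96 TPM at E9 and 2.43, 2.67 and 2.09 TPM at E12, and was listed at 0 in every Bir_G sample. gga-miR-6696-3p (COL27A1) was 3.05, 1.25 and 2.83 TPM at E9 and was listed at 0 in every Bir_G sample. From Pre_E to Lat_E they fell by 2.11 ± 0.32 and 1.29 ± 0.17 (limma adjusted p = 0.000127 and 2.71e-05). This call of gga-miR-6561-5p was lost in edgeR (adjusted p = 0.060) and in limma with stage means (adjusted p = 0.084). That of gga-miR-6696-3p was lost in limma with the samples centred (change −0.36, adjusted p = 0.056).

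Of the 4 members above 0 in all 39 muscle samples, gga-miR-6648-3p and gga-miR-6669-3p fell from Pre_E to Bir_G, gga-miR-6660-3p rose and gga-miR-6582-3p did not pass the test. gga-miR-6648-3p, whose hairpin copies lie within UNG, a DNA repair gene, ran from 4.08 to 9.53 TPM in Pre_E, from 0.752 to 5.84 TPM in Lat_E and from 0.188 to 3.08 TPM in Bir_G. Its level fell by 1.72 ± 0.20 from Pre_E to Bir_G (limma adjusted p = 2.11e-08), and every Pre_E sample was above every Bir_G sample. gga-miR-6669-3p ran from 5.53 to 14.1 TPM in Pre_E, from 0.940 to 9.73 TPM in Lat_E and from 0.307 to 3.06 TPM in Bir_G, a fall of 2.30 ± 0.21 between the first and the last (adjusted p = 1.14e-10). gga-miR-6582-3p, within MED23, ran from 3.14 to 6.77 TPM (median 4.34) in Pre_E and from 0.618 to 3.49 TPM (median 1.69) in Bir_G. Its difference, −0.98, was just short of the fold limit on the log2(TPM + 1) scale, which understates changes of low values.

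Further members fell from Pre_E to Bir_G. gga-miR-6557-3p (within JARID2, a Polycomb cofactor), gga-miR-6586-5p and gga-miR-6608-3p (within SOX5) fell by 1.97 ± 0.38, 2.39 ± 0.32 and 1.73 ± 0.13 (limma adjusted p = 4.91e-05, 2.63e-07 and 2.53e-12). The first of these was not called by edgeR (adjusted p = 0.0859). gga-miR-6557-3p had a Bir_G sample at 10.1 TPM, replicate 1 of D300, beside 1.77 and 0 TPM in the others of that stage. gga-miR-6590-3p, gga-miR-6592-3p, gga-miR-6570-5p and gga-miR-6698-3p fell by 1.02 to 1.26 from Pre_E medians of 1.17 to 1.37 TPM, and the calls of gga-miR-6592-3p and gga-miR-6570-5p were lost without replicate 1 (when they fell by 0.94 and fell by 0.92) and that of gga-miR-6698-3p without replicate 3 (when it fell by 0.92). With the samples centred all 4 calls were lost, with changes of −0.78, −0.62, −0.61 and −0.54 in that order. gga-miR-6615-5p fell by 1.65 ± 0.12 from Lat_E to Bir_G (adjusted p = 1.19e-13), although in Pre_E it was 9.43, 0 and 9.18 TPM at E9 and 0, 5.46 and 0 TPM at E12.

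gga-miR-6665-5p had its lowest median of the 3 periods in Lat_E, 0 TPM, against 1.22 TPM in Pre_E and 0.701 TPM in Bir_G. These levels are only a few reads above the floor. It was 10.9, 9.39 and 10.1 TPM in the E5 embryos, 1.67, 1.67 and 3.83 TPM at E9, and was listed at 0 in all samples of E15 and E20. It ran from 0 to 0.769 TPM in Lat_E and from 0.263 to 1.13 TPM in Bir_G. The fall from Pre_E to Lat_E was 1.05 ± 0.20 (limma adjusted p = 0.000849) and was short of the fold limit without replicate 3 (−0.84). The call was also lost in limma with the samples centred (change −0.12, adjusted p = 0.68) and with stage means (adjusted p = 0.12), and in edgeR (adjusted p = 0.14). The difference of 0.57 from Lat_E to Bir_G was below the fold limit.

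In the limma comparisons of periods on log2(TPM + 1), gga-miR-6660-3p was the only member called higher, while some other settings called more. Its hairpin lies within GRAMD2. It was 2.55, 1.67 and 2.62 TPM at E9, 5.21, 4.81 and 4.57 TPM at E12 and 13.7, 9.02 and 11.4 TPM at D300. It ran from 1.67 to 5.21 TPM (median 3.60) in Pre_E, from 2.48 to 12.9 TPM (median 4.72) in Lat_E and from 4.92 to 13.7 TPM (median 8.19) in Bir_G, so the first and the last period overlapped slightly. The level rose by 1.03 ± 0.18 (limma adjusted p = 1.01e-05) and was short of the fold limit without replicate 2 (0.96). The median change of the more abundant miRNAs in this comparison was −0.61, and with the samples centred the rise was 1.51.

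**Figure D4:**
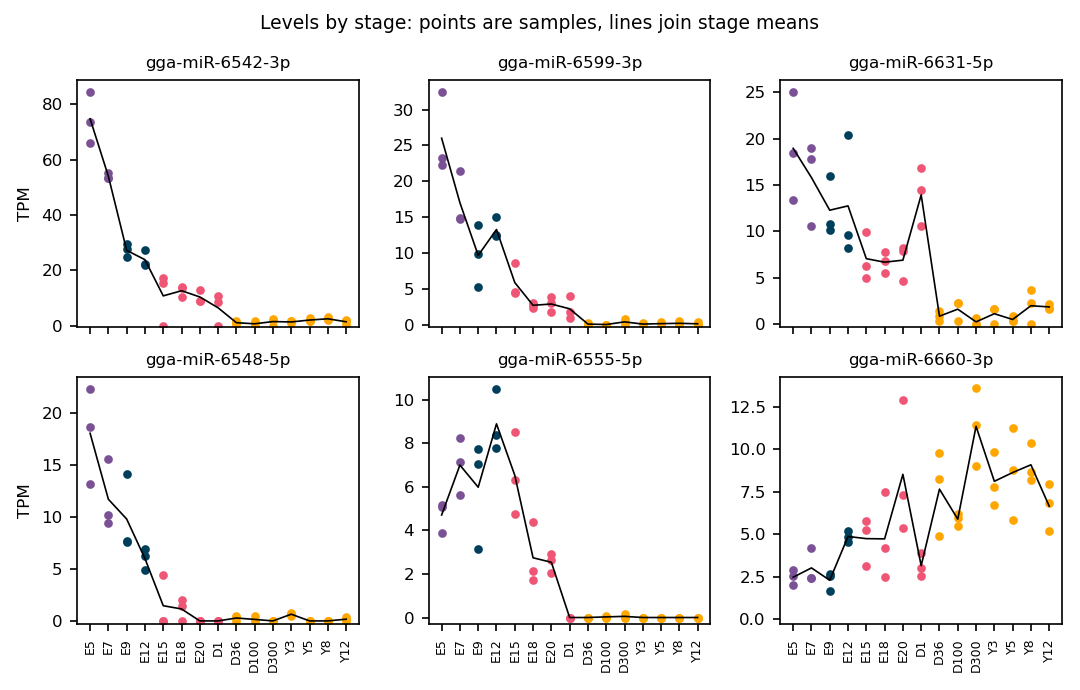
Levels in TPM of 6 members at the 15 stages; points are samples of whole embryos (purple), Pre_E (dark blue), Lat_E (red) and Bir_G (orange), and lines join stage means. gga-miR-6542-3p lies at 66.0 to 84.6 TPM in whole embryos at E5 and at most at 3.26 TPM in muscle from D36 on. gga-miR-6631-5p lies at 10.5 to 16.8 TPM at D1, and gga-miR-6660-3p reaches 9.02 to 13.7 TPM at D300.

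Across the 13 muscle stages, 37 of 143 members differed among stages in limma's F test with a range of at least 1 on the log2 scale, against 51.8% of all 816 miRNAs tested. A miRNA whose stage means all lie below 1 TPM cannot reach this range, so the lower share was partly fixed by level. With a minimum mean of 1 TPM the shares were 92.9% of 14 members and 94.0% of 315 miRNAs. A polynomial of degree 2 in the order of stages, with R-squared of at least 0.6, held for 23 falling and 1 rising member, against 19.7% and 6.86% (26.6% together) of all miRNAs. The best fit was that of gga-miR-6694-3p with an R-squared of 0.926, followed by gga-miR-6599-3p (0.873) and gga-miR-6555-5p (0.852) among the 30 members. The rising member was gga-miR-7476-5p, which lies outside the 30 and was singled out after its values were seen. Its hairpin lies within RILPL1. Before D100 its only value above 0 was 0.209 TPM, in replicate 2 of E9. It was 0.633, 0.706 and 0.801 TPM at D100 and 1.38, 2.71 and 1.49 TPM at Y12. The fit had an R-squared of 0.705 (adjusted p = 1.27e-09, least-squares fit over all miRNAs of the 39 samples). Its changes between periods, 0.90 from Lat_E and 0.85 from Pre_E to Bir_G, were below the fold limit.

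The stage of the highest mean was early for most members, as for other miRNAs. Of 143 members above 0 in muscle, 54 peaked at E9 and 25 at E12, together 55.2%, against 56.6% of other known miRNAs. A further 28 peaked in Lat_E and 36 in Bir_G, 13 of these at D300. The peak lay above all samples of the next stage for 11 members (7.69%), against 14.1% of other known miRNAs. In the larger block 67 of 112 peaked in Pre_E and 20 in Bir_G, and in the smaller block 12 of 29 and 14. With E5 and E7 included, gga-miR-6623-3p (within CPT2 and SLC1A7) was high only in whole embryos, at 7.52, 8.17 and 6.78 TPM at E5 but 0.983, 0.940 and 1.21 TPM at E9, with no overlap between whole embryos and Pre_E. gga-miR-6656-5p, within the VEGF receptor gene FLT1, was 3.28, 4.04 and 3.43 TPM at E5 and ran from 0 to 2.08 TPM in Pre_E.

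At D300, 104 members listed in both tables and above 0 were compared among 6 tissues. Each tissue was set against the mean of the other 5 in 1 limma fit over 18 samples, so that the 6 contrasts share all samples, and 541 known miRNAs were tested. A miRNA whose tissue means all lie below 1 TPM cannot reach a difference of 1 on the log2(TPM + 1) scale. In the table of 5 tissues, 16.7% of 120 members reached a mean of 1 TPM in some tissue, against 53.5% of all 707 miRNAs. Lower shares of members called below were thus partly fixed by their level. Brain was the tissue of the highest mean for 60 of the 104 (57.7%), against 40.0% of other known miRNAs. Pectoral muscle followed with 17, liver and ovary had 8 each, spleen 7 and kidney 4. With medians in place of means, brain was highest for 37 of the 67 members with a median above 0 (55.2%), against 39.7% of other known miRNAs. The peak lay above every sample of the next tissue for 16 members (15.4%), against 47.6% of other known miRNAs. These were 11 in brain (10.6%, against 21.5% of other known miRNAs), 4 in muscle (3.85%, against 6.41%) and 1 in ovary (0.962%, against 4.12%).

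In brain, 8 members were called higher and 0 lower, against 22.2% and 8.87% (31.1% together) of all miRNAs tested. The largest difference was that of gga-miR-7443-3p, whose hairpin lies within RBFOX3, a splicing factor gene of neurons. It was 5.07, 5.59 and 4.09 TPM in brain, 0.543, 0.726 and 0 TPM in liver, and listed at 0 in the other 4 tissues, a difference of 2.46 ± 0.12 on the log2 scale (limma adjusted p = 1.86e-10). Among the stages it ran from 0.297 to 2.63 TPM in whole embryos and was listed at 0 in every Lat_E and Bir_G sample.

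gga-miR-6590-3p, within the autophagy gene ATG2A, was 3.92, 2.91 and 3.53 TPM in brain, above every sample of the other tissues, where it was at most 1.12 TPM (difference 1.84 ± 0.20, limma adjusted p = 2.23e-06). gga-miR-6582-3p was 8.84, 8.58 and 6.97 TPM in brain and 5.07, 5.72 and 5.31 TPM in liver, and was 1.36 to 4.54 TPM in the remaining tissues (difference 1.22 ± 0.17, adjusted p = 1.72e-05). gga-miR-6555-5p was 2.00, 1.76 and 1.58 TPM in brain, and the only other value above 0 was 0.159 TPM in muscle (difference 1.46 ± 0.05, adjusted p = 5.01e-12). gga-miR-6555-3p of the same hairpin was also called, at 0.461, 1.38 and 1.49 TPM in brain.

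The remaining brain calls were less uniform. gga-miR-6599-3p was 1.84, 1.76 and 0.929 TPM in brain and at most 0.793 TPM elsewhere (difference 1.21 ± 0.13, limma adjusted p = 2.18e-06). gga-miR-6669-3p was 7.76, 4.75 and 2.51 TPM in brain, the lowest of which lay below the highest muscle sample at 2.90 TPM (difference 1.48 ± 0.23, adjusted p = 7.39e-05). gga-miR-6615-5p, within ADAMTS10, was 11.8, 12.9 and 4.0 TPM in brain, and its call (difference 1.13 ± 0.28, adjusted p = 0.00311) was lost without replicate 1 (0.94) and without replicate 2 (0.86). With the samples centred on the median miRNA 4 of the 8 brain calls were kept, gga-miR-7443-3p, gga-miR-6590-3p, gga-miR-6669-3p and gga-miR-6555-5p.

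In ovary, 2 members were called higher and 0 lower, against 10.2% and 3.7% (13.9% together) of all miRNAs. gga-miR-6615-5p was highest there, at 16.9, 15.2 and 11.3 TPM, overlapping brain and above every sample of the other tissues (difference 1.94 ± 0.28, limma adjusted p = 0.000106). gga-miR-6648-3p was 1.72, 2.58 and 5.80 TPM in ovary (difference 1.05 ± 0.24, adjusted p = 0.00396), and its call was lost without replicate 2 (adjusted p = 0.093) without replicate 3 (difference 0.81), and with centring (0.70).

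In pectoral muscle at D300, 4 members were called higher and 1 lower, against 8.5% and 17.9% (26.4% together) of all miRNAs. gga-miR-6660-3p, 9.02 to 13.7 TPM in muscle, was at most 2.22 TPM in any sample of the other tissues (difference 2.74 ± 0.17, limma adjusted p = 1.87e-08). gga-miR-6550-3p, within FEM1B, was 2.86, 3.38 and 3.09 TPM in muscle, above every other sample, the next being 2.61 TPM in brain (difference 1.39 ± 0.14, adjusted p = 1.75e-06). gga-miR-6677-5p was 1.63, 0.725 and 2.30 TPM and gga-miR-6701-3p 0.899, 1.85 and 4.20 TPM in muscle, and both fell short of the fold limit without replicate 3 (0.86 and 0.97). gga-miR-6615-5p was the lower one, at 0.736, 0.483 and 0 TPM (difference −2.24 ± 0.28, adjusted p = 1.11e-05).

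In kidney, 1 member was called higher and 2 lower, against 4.25% and 23.5% (27.7% together) of all miRNAs. gga-miR-7460-3p, within CDHR2, a cadherin gene of the brush border, was 1.54, 2.84 and 2.27 TPM in kidney and 0.922, 0.919 and 1.86 TPM in brain. It was listed at 0 in liver, ovary and D300 muscle (difference 1.39 ± 0.12, limma adjusted p = 6.62e-07), and its highest values of all were in E7 embryos, 11.8, 3.96 and 12.6 TPM. gga-miR-6660-3p (0, 0.394 and 0 TPM) and gga-miR-6669-3p (0, 0.551 and 0 TPM) were called lower in kidney, where abundant miRNAs had a median difference of −1.21. With the samples centred, gga-miR-7460-3p was the only kidney call, with a difference of 2.14.

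In spleen, 1 member was called higher and 0 lower, against 9.8% and 11.8% (21.6% together) of all miRNAs. In liver 0 were called, against 11.3% higher and 12.0% lower (23.3% together). gga-miR-7465-3p was 0.867, 2.27 and 2.14 TPM in spleen and at most 0.946 TPM in the other tissues (difference 1.30 ± 0.20, limma adjusted p = 8.75e-05). Its hairpin lies within the potassium channel gene KCNQ5. In muscle it was listed at 0 in most samples but reached 14.1 TPM in replicate 2 of Y12, beside 0 and 0 TPM. In liver, 18 of 104 members (17.3%) had an unadjusted p of at most 0.05, against 46.4% of all miRNAs, and edgeR on the recovered reads called 7, against 25.0%.

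**Figure D5:**
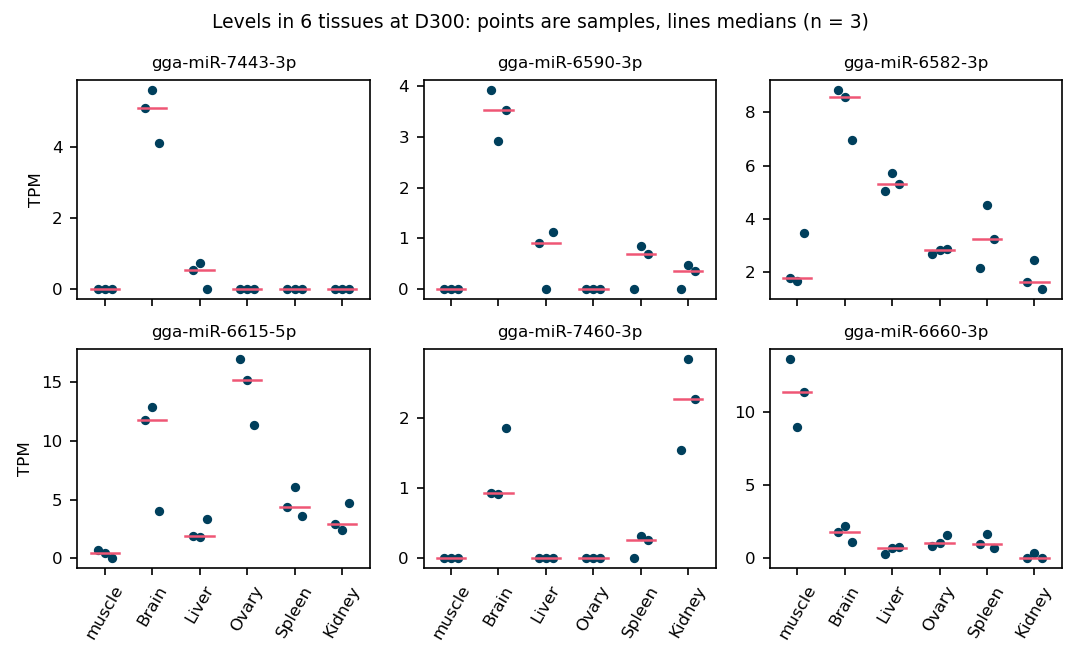
Levels in TPM of 6 members in pectoral muscle and 5 other tissues at D300; points are samples and lines are medians of 3. gga-miR-7443-3p lies at 4.09 to 5.59 TPM in brain and at most 0.726 TPM elsewhere, gga-miR-6615-5p at 11.3 to 16.9 TPM in ovary, and gga-miR-6660-3p at 9.02 to 13.7 TPM in muscle.

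The arms of a hairpin were mostly unequal. Both arms were listed for 54 of the 125 numbers, only the 5p arm for 34 and only the 3p arm for 37. Among 17 hairpins with both arms and a summed mean of at least 0.5 TPM, the 3p arm was higher in 11 and the 5p arm in 6. The same arm was higher in every sample with reads in 10 of the 17. The 5p arm made up 0.294% of the summed mean level in miR-6542 and 3.04% in miR-6599, and 95.6% in miR-6615 and 95.4% in miR-6561. In miR-6677 and miR-7441 the arms were near even, with 56.1% and 48.6% from the 5p arm, and either arm could be the higher one, the 5p arm of miR-6677 in 23 samples and its 3p arm in 19.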

How the data were processed

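The authors sequenced small RNA and deposited 2 tables of values that they call TPM. Per the methods, reads were trimmed with cutadapt, kept at 18 to 30 nt, cleared of repeats and other small RNAs, and mapped to the chicken genome, with known miRNAs taken from miRBase version 21. The labels name Bowtie and cutadapt without versions, and the genome build is not given in the sources used here. The deposited values are RPM, reads scaled to library size. Only low values were checked, and in every sample each of these lay within 0.1 read of a whole number. Whole reads were recovered for 56 samples. Counting error is the only error such a depth covers, and 3 reads was taken as the floor. The design assumed TPM, and the tests on log2(value + 1) were kept. 1 column without a sample name was not used.

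Samples were grouped by label. limma 3.58.1 in R 4.3.3 compared periods, stages and tissues over all miRNAs, two-sided, with Benjamini-Hochberg adjustment, calling an adjusted p of at most 0.05 with a 2-fold change. The time course used a polynomial of degree 2 over the order of stages, fitted by least squares, with R-squared of at least 0.6. edgeR 4.0.16 on recovered reads was an alternative, beside a pseudocount of 0.1, a minimum mean of 1 TPM, centring on the median miRNA and stage means. The logarithm of days, a replicate block, unadjusted p and leaving out replicates were further alternatives. Leaving out a 0 beside at least 3 TPM in both other samples was added after seeing the data. Members described in detail had a group mean of at least 10 TPM or passed a test, limited to the 30 with the highest group mean. The members and lists were chosen with earlier results of these data known. The fits were tested on simulated data, where recovery of planted changes was required only of miRNAs with far more reads than most members had. That test does not show how the fits perform at the low levels of most members. Tables were joined in Python 3.11.15 with pandas 2.3.3.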

Additional observations from a re-analysis of the deposited data

Results flagged for a closer look

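Among the 59 sets of 6 samples examined (whole embryos and Pre_E, for the members described in detail), 6 held a flagged sample. Its gap to its nearest neighbour exceeded Dixon's limit at 95% for its share of the range. Chance exceeds this limit in about 1 of 20 sets drawn from a single normal distribution. Each set here pools different stages, so that rate need not hold. gga-miR-6548-5p was 14.1 TPM in replicate 1 of E9, the next Pre_E sample being 7.67 TPM. gga-miR-6665-5p was 3.83 TPM and gga-miR-6698-3p 2.22 TPM in replicate 3 of E9, with the next Pre_E samples at 1.67 and 1.43 TPM. gga-miR-6648-3p was 16.4 TPM and gga-miR-6608-3p 11.1 TPM in replicate 1 of E5, with the next whole embryos at 9.02 and 4.41 TPM. gga-miR-6656-5p was low, at 1.59 TPM, in replicate 2 of E7, with the next whole embryo at 3.22 TPM.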

How the results depend on the processing

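Numbers of members called changed with several settings, as did the shares of all miRNAs called. Where both shares are given, that of the members comes first. Counts over tissues, of peaks, and of the time course without a replicate are given here without such a share. They are not read as a result about the members. At the main settings the share of members called was below that of all miRNAs in every tissue. It was 7.69% against 31.1% in brain and 4.81% against 26.4% in muscle. This order was partly fixed in advance, because a miRNA with all tissue means below 1 TPM cannot be called at those settings. With a pseudocount of 0.1 the counts were 30 from Pre_E to Lat_E (23.8% against 32.8%) and 32 from Lat_E to Bir_G (26.7% against 45.4%). They were 54 from Pre_E to Bir_G (40.9% against 55.7%) and 59 in the F test (41.3% against 64.1%). Over tissues they were 37 in brain, 11 in liver, 10 in ovary, 10 in spleen, 11 in kidney and 16 in muscle. With edgeR they were 68 from Lat_E to Bir_G (57.1% against 66.5%) and 76 from Pre_E to Bir_G (58.9% against 66.6%). Over tissues edgeR gave 38 in brain, 7 in liver, 4 in ovary, 4 in spleen and 15 in muscle. Centring gave 117 in the F test (81.8% against 85.5%) and 4 in the time course (2.80% against 19.9%). It gave 4 in brain, 1 in liver, 1 in kidney and 8 in muscle. With a minimum mean of 1 TPM there were 13 in the F test (92.9% against 94.0%) and 8 in the time course (57.1% against 47.9%). There were 3 in brain, 0 in spleen and 3 in muscle, with fewer members tested. Stage means gave 1 from Pre_E to Lat_E (0.794% against 3.16%), and the logarithm of days 11 in the time course (7.69% against 21.1%). The ratio of summed levels between Pre_E and Bir_G was 8.07 as a share, and brain was the peak of 37 of 67 members by medians. Except for the constructions that test fewer members, the cause was not tested. Leaving out a replicate gave 9 to 13 calls from Pre_E to Lat_E (7.63% to 11.5%, against 16.5% to 19.7%). It gave 8 to 9 from Lat_E to Bir_G (7.08% to 8.74%, against 28.3% to 29.7%). From Pre_E to Bir_G it gave 19 to 25 (15.8% to 20.3%, against 37.3% to 38.2%). The F test had 28 to 39 (21.1% to 30.5%, against 46.8% to 52.1%) and the time course 24 to 26. Over tissues there were 6 to 8 in brain, 0 to 1 in liver, 1 to 2 in ovary, 1 in spleen, 3 to 4 in kidney and 4 to 6 in muscle. There were 70 to 76 Pre_E and 46 to 57 brain peaks. Same-numbered samples did not deviate together (mean correlation 0.00883 over 234 pairs of muscle samples), and a fit with a replicate block left the counts at 11, 8, 21, 37 and 24 over age and 8, 0, 2, 1, 3 and 5 over tissues. Of 943 alternative values for the members described in detail, 844 kept direction and call, 99 kept direction but lost the call, and 0 reversed. Part of this was fixed in advance. The 84 values with unadjusted p, all among the 844, could not lose a call, and the range used in the F test cannot reverse. The 62 values with a minimum mean of 1 TPM kept the same estimated change, so they could not reverse. The same held for the 97 with a replicate block, apart from the time course. The 79 with a lone 0 left out could change the estimate only of miRNAs holding such a 0. None of these lost a call, so the 844 overstate how far the results were tried. At 3 reads, 0.230 to 0.321 TPM, the rarer members were at the limit of detection.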
